A study of Rattus norvegicus with 23 samples.

Results

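The 9 genes described here are brakes on growth factor signalling and the antiproliferative gene Btg2. The brakes are the MAP kinase phosphatases Dusp1, Dusp4, Dusp5 and Dusp6 and the receptor tyrosine kinase inhibitors Spry1, Spry2, Spry4 and Spred1. All 9 genes were chosen by symbol from a table of 32883 gene identifiers. Each symbol stood for 1 identifier, and all 9 passed the filter on low counts that left 13834 genes for testing. They were measured by sequencing poly-A RNA of rat brain endothelium, as primary cells taken from co-cultures with pericytes and astrocytes, a culture model of the blood-brain barrier. Each of the 23 libraries is the endothelial lysate of 1 culture insert.

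The groups were OGD/R with N,N-dimethyltryptamine and BD1063 (6 inserts, called the BD1063 group), OGD/R with N,N-dimethyltryptamine (5 inserts, the DMT group), OGD/R alone (6 inserts) and normoxia (6 inserts). In OGD/R, cultures lose oxygen and glucose and are then reoxygenated, which models ischaemic stroke. N,N-dimethyltryptamine (DMT) is a tryptamine that binds serotonin receptors and the sigma-1 receptor, and BD1063 is a sigma receptor antagonist. No group had BD1063 without DMT, and none had DMT in normoxia. Rat strain, animal age, doses and times are not given in the sources used here. Nor is it given whether inserts came from separate cell isolations, so the p-values speak only of insert-to-insert spread, which may be technical.

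Growth factors bind receptor tyrosine kinases, which activate Ras and then the kinase chain Raf, MEK and ERK. ERK signalling induces genes whose products shut it down again: dual specificity phosphatases remove the activating phosphates from MAP kinases, while Sprouty and Spred proteins act upstream, at the receptor and at Ras and Raf. Because these mRNAs are short-lived and follow the activity of the pathway, they are widely used as a transcript readout of it. In brain endothelium the same pathway carries signals of vascular endothelial growth factor and fibroblast growth factor.

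Gene counts summed to between 12162759 and 18565166 reads per library. Levels are given as CPM, the count scaled to a common library size with TMM factors, and are not divided by gene length, so they compare groups but not genes. The 11 endothelial markers found, Cdh5 and Cldn5 among them, summed to 11314 to 12039 CPM in the BD1063 group, 11549 to 12996 CPM in the DMT group, 10521 to 11935 CPM in OGD/R and 12533 to 13765 CPM in normoxia, and in OGD/R against normoxia 4 of them were lower and 2 higher. A list of 7 fibroblast and meningeal markers summed to 104 to 396 CPM in the BD1063 group, 150 to 400 CPM in the DMT group, 137 to 420 CPM in OGD/R and 426 to 950 CPM in normoxia, and 3 of its 5 tested genes were lower in OGD/R than in normoxia. Most of this sum was Col1a1 and Col3a1, at 196 to 464 and 182 to 439 CPM in normoxia. The highest value in any library was 44.0 CPM for Fbln1, 8.27 for Pdgfra, 4.46 for Postn, 0.810 for Dcn and 0.561 for Lum. A list of 10 pericyte and smooth muscle markers summed to 122 to 220 CPM in the BD1063 group, 138 to 243 CPM in the DMT group, 177 to 334 CPM in OGD/R and 185 to 271 CPM in normoxia. In OGD/R against normoxia 1 of its 8 tested genes was higher and 1 lower, and in the BD1063 group against OGD/R 2 were lower. The 6 microglia and leukocyte markers summed to 4.19 to 7.40 CPM in the BD1063 group, 5.27 to 8.68 CPM in the DMT group, 3.44 to 8.64 CPM in OGD/R and 3.13 to 4.24 CPM in normoxia, with 2, 2 and 1 of the 4 tested higher than in normoxia. The part of these lists in the differences below was not tested. Of 7 astrocyte markers only Gja1, which endothelium also expresses, passed the filter, and Aqp4 was at 0 in 6 of 6 OGD/R libraries and at most at 0.0748 CPM in any other. In DMT 5, cytosolic ribosomal protein genes took 3.24% of reads, while they took 1.84% to 1.996% in DMT 1 to 4. Their share was 3.10% in OGD/R 5 and 1.91% to 2.34% in the remaining inserts of that group. Small noncoding RNAs made up 2.54% of OGD/R 3 and 0.0894% to 0.235% of the remaining OGD/R inserts.

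Differences were tested with edgeR's quasi-likelihood test in 1 fit of all 23 libraries, and a gene was called at a Benjamini-Hochberg adjusted p under 0.05 over all 13834 genes. After OGD/R, 4 of the 9 genes were lower than in normoxia (Btg2, Dusp6, Dusp1 and Spry1), 2 were higher (Spry2 and Dusp4) and 3 did not pass the test (Dusp5, Spry4 and Spred1). In this comparison 35.5% of all genes were called, 16.7% lower and 18.9% higher. The median log2 fold change of the 9 genes was -0.14, against 0.01 over all genes tested. In lysates, less RNA per cell and fewer cells of a type cannot be told apart.

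**Figure D1:**
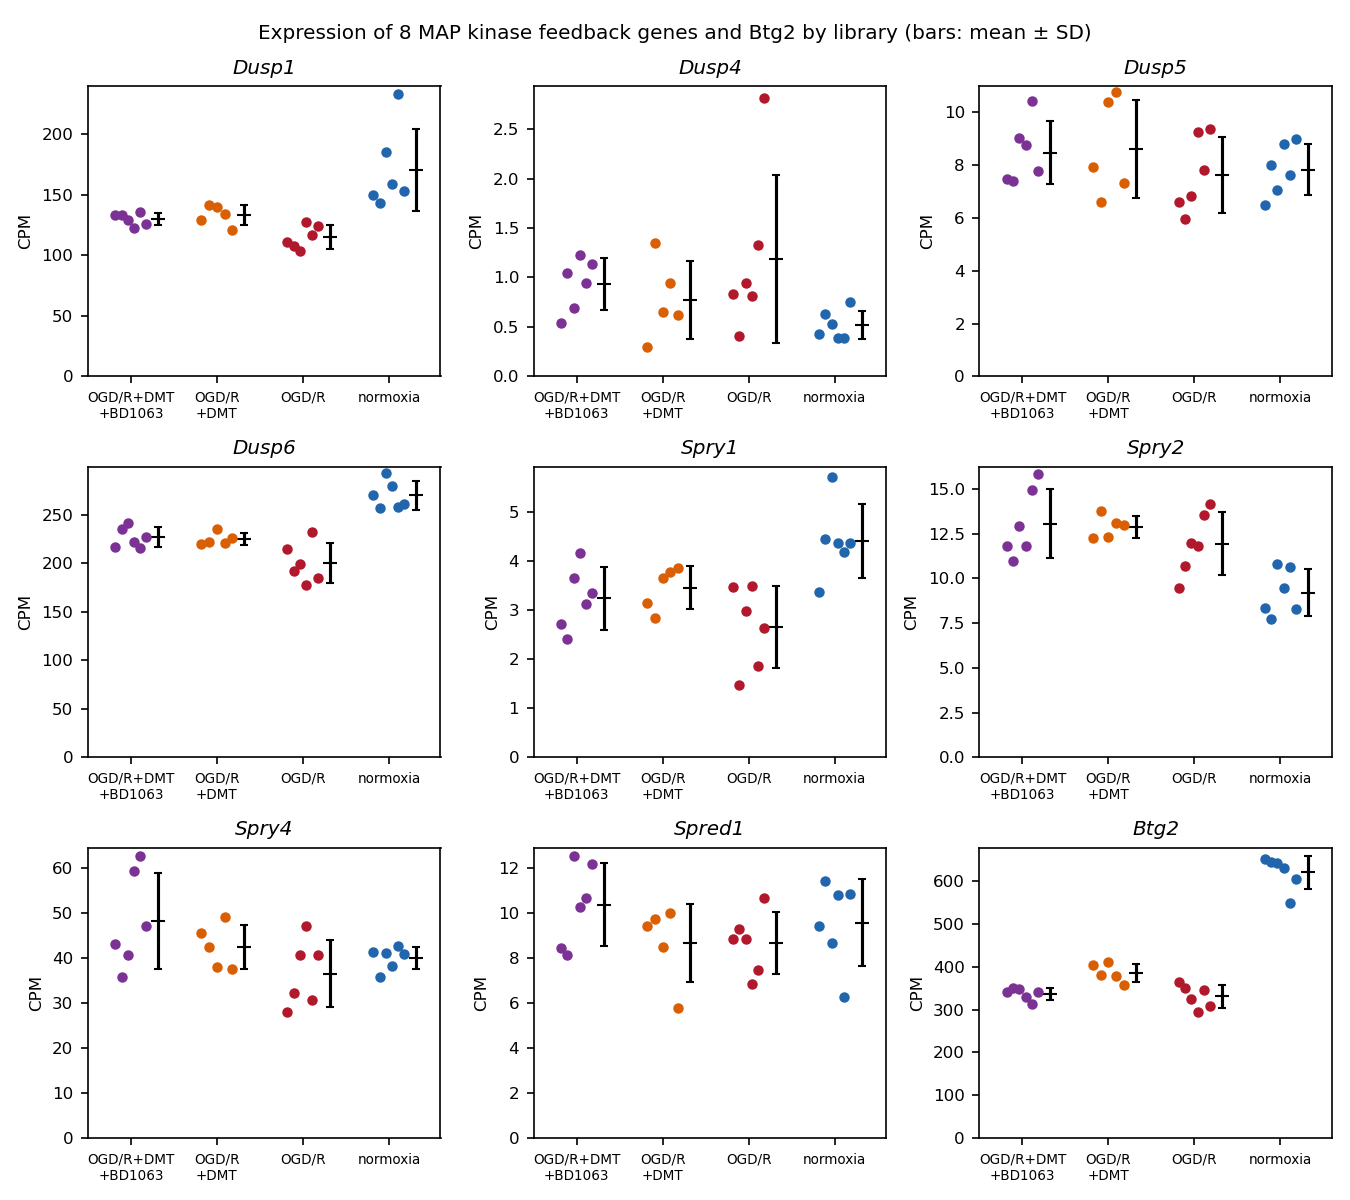
Level of each gene in CPM (y axis, linear from 0, a scale of its own in each panel) in every library (points), by group (x axis), with the mean and SD of each group beside the points. Btg2, Dusp6 and Dusp1 are lower in every OGD/R library than in any normoxia library, and the OGD/R mean of Dusp4 is drawn up by 1 library at 2.81 CPM.

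Btg2 encodes a member of the BTG/TOB family that binds the CCR4-NOT deadenylase, slows the cell cycle and is induced by p53 and by growth factors. It had 313, 341 and 351 CPM (lowest, median, highest) in the BD1063 group. The 5 DMT libraries had 403, 379, 410, 379 and 358 CPM. OGD/R libraries had 294, 336 and 365 CPM, and normoxia libraries 549, 635.5 and 650 CPM. Every insert exposed to OGD/R, with or without drug, lay below every normoxic insert. Btg2 fell in OGD/R by 0.90 ± 0.06 on the log2 scale (SE; 95% interval -1.02 to -0.79; adjusted p = 4.56e-11, edgeR), and 6 of 6 libraries were below the normoxia mean. By p-value it was gene number 13 of all genes tested.

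Dusp6 encodes the cytoplasmic phosphatase that is selective for ERK. It had 216, 225 and 242 CPM in the BD1063 group. The 5 DMT libraries had 220, 222, 236, 221 and 226 CPM. OGD/R libraries had 178, 196 and 233 CPM, and normoxia libraries 257, 266 and 294 CPM. The OGD/R libraries lay below all normoxia libraries, and those with DMT, which spread least, lay in the upper part of the OGD/R range or above it and below normoxia. In OGD/R, Dusp6 fell by 0.43 ± 0.06 on the log2 scale (SE; 95% interval -0.55 to -0.31; adjusted p = 3.19e-06, edgeR).

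Dusp1, a nuclear phosphatase of p38, JNK and ERK that stress and glucocorticoids induce, had 122, 131 and 136 CPM in the BD1063 group. The 5 DMT libraries had 129, 141, 140, 134 and 121 CPM. OGD/R libraries had 103, 114 and 127 CPM, and normoxia libraries 143, 156 and 233 CPM. Normoxia was the group with the widest spread, normoxia 5 being highest, and no OGD/R library reached it. Dusp1 fell in OGD/R by 0.57 ± 0.09 on the log2 scale (SE; 95% interval -0.75 to -0.38; adjusted p = 2.61e-05, edgeR). With single libraries left out the log2 difference was between -0.61 and -0.47.

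Btg2, Dusp6 and Dusp1 are 3 of 9 genes whose OGD/R and normoxia libraries did not overlap and were lower, where 7.23% of all genes did the same. None of the 9 was higher without overlap, as 9.14% of all genes were. The 250 bases upstream of the RefSeq transcription start were read for them, on the gene's own strand, from RefSeq on the build GRCr8, which is not the build of the counts. Dusp5 is shown beside them, and it did not pass edgeR's test in any comparison. The same holds for Spry4 and Spred1, whose windows held no CArG box and are not printed. Capitals mark the cAMP response element TGACGTCA in Dusp1 and Btg2 and the CArG boxes, to which serum response factor binds, in Dusp5.
Dusp1 promoter (chr10:17184603-17184852, + strand): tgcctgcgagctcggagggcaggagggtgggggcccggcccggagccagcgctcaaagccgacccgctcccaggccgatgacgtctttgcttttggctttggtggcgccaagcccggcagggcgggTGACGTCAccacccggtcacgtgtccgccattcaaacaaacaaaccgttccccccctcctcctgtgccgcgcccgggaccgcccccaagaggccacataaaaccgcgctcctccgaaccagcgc
Btg2 promoter (chr13:48087691-48087940, - strand): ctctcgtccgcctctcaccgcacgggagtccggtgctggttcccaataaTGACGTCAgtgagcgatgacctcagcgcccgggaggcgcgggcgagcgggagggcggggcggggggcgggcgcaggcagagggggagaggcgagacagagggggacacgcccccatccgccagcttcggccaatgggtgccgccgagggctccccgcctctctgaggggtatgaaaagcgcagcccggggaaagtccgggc
Dusp6 promoter (chr7:35979354-35979603, + strand): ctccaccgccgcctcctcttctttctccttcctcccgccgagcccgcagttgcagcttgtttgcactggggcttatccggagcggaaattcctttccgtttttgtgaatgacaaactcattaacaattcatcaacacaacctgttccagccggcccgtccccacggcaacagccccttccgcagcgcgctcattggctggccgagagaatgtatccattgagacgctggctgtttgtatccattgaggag
Dusp5 promoter (chr1:262543524-262543773, + strand): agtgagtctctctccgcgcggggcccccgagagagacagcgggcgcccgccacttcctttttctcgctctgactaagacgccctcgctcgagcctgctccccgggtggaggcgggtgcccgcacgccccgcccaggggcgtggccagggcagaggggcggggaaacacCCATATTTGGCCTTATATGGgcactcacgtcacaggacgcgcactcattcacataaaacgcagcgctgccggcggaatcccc

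The following 4 motifs were searched on both strands in these windows: the palindrome TGACGTCA, the AP-1 site TGANTCA, the ETS core CCGGAA and the CArG box. A window was found for 8 of the 9 genes, Dusp4 having none, and Spry2 having 2. The cAMP response element begins 124 bases upstream of the start of Dusp1 and 201 bases upstream of that of Btg2. It stood in 1.59% of all 33469 promoter windows of the same length. The pair of CArG boxes of Dusp5 begin 82 and 72 bases upstream, and 1.5% of windows held such a box. An ETS core, which 12.6% of windows held, begins 171 bases upstream in 1 window of Spry2 and 81 bases upstream in Spry4. No AP-1 site, present in 6.34% of windows, was matched in any of the 8 genes, and Dusp6, Spry1 and Spred1 had none of the 4 motifs. These matches are letters in a window and were not tested as binding sites.

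The Sprouty and Spred genes, which encode membrane-bound inhibitors of receptor and Ras signalling, did not move as 1 group. Spry1 had 2.40, 3.23 and 4.16 CPM in the BD1063 group. The DMT libraries had 3.14, 2.84, 3.65, 3.78 and 3.84 CPM. OGD/R libraries had 1.47, 2.80 and 3.48 CPM, and normoxia libraries 3.35, 4.36 and 5.69 CPM. Only normoxia 1, the lowest normoxic insert, lay within the OGD/R range. Spry1 fell in OGD/R by 0.74 ± 0.18 on the log2 scale (SE; adjusted p = 0.00272, edgeR).

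Spry2 was higher after OGD/R. It had 10.96, 12.4 and 15.8 CPM in the BD1063 group. The DMT libraries had 12.3, 13.8, 12.3, 13.1 and 12.97 CPM. OGD/R libraries had 9.47, 11.9 and 14.2 CPM, and normoxia libraries 7.75, 8.89 and 10.8 CPM. Libraries with either drug treatment all lay above the normoxia libraries, while those of OGD/R alone overlapped them. The log2 fold change in OGD/R was 0.37 ± 0.11 (SE; adjusted p = 0.00993, edgeR).

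Spry4 and Spred1, the second of which encodes a Sprouty-related protein that brings neurofibromin to Ras, did not pass the test in OGD/R against normoxia. Spry4 averaged 36.6 ± 7.35 CPM in OGD/R and 40.1 ± 2.50 CPM in normoxia (SD, n = 6 each), a log2 fold change of -0.13 (95% interval -0.40 to 0.14; adjusted p = 0.456, edgeR). Its OGD/R libraries were scattered around the narrow normoxia range on both sides. Spred1 averaged 8.67 ± 1.36 CPM in OGD/R and 9.58 ± 1.92 CPM in normoxia (SD, n = 6 each), a log2 fold change of -0.14 (95% interval -0.46 to 0.17; adjusted p = 0.493, edgeR).

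Dusp5, a nuclear ERK phosphatase, averaged 7.64 ± 1.44 CPM in OGD/R and 7.82 ± 0.972 CPM in normoxia (SD, n = 6 each), a log2 fold change of -0.03 (95% interval -0.31 to 0.25; adjusted p = 0.877, edgeR). Dusp4, a nuclear phosphatase of ERK and JNK, was near the limit of detection, with 4 to 45 reads per library. Its 6 OGD/R libraries had 0.832, 0.413, 0.941, 0.809, 1.33 and 2.81 CPM, against 0.433, 0.625, 0.528, 0.391, 0.391 and 0.748 CPM in normoxia. OGD/R 6 stood above all other libraries and OGD/R 2 lay within the normoxia range. The log2 fold change of Dusp4 was 1.18 ± 0.38 (SE; adjusted p = 0.0189, edgeR). The call ended without OGD/R 6 (0.71, adjusted p = 0.104), which is 1 end of a range from 0.00551 with single libraries left out, and in limma voom (0.77, adjusted p = 0.10).

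**Figure D2:**
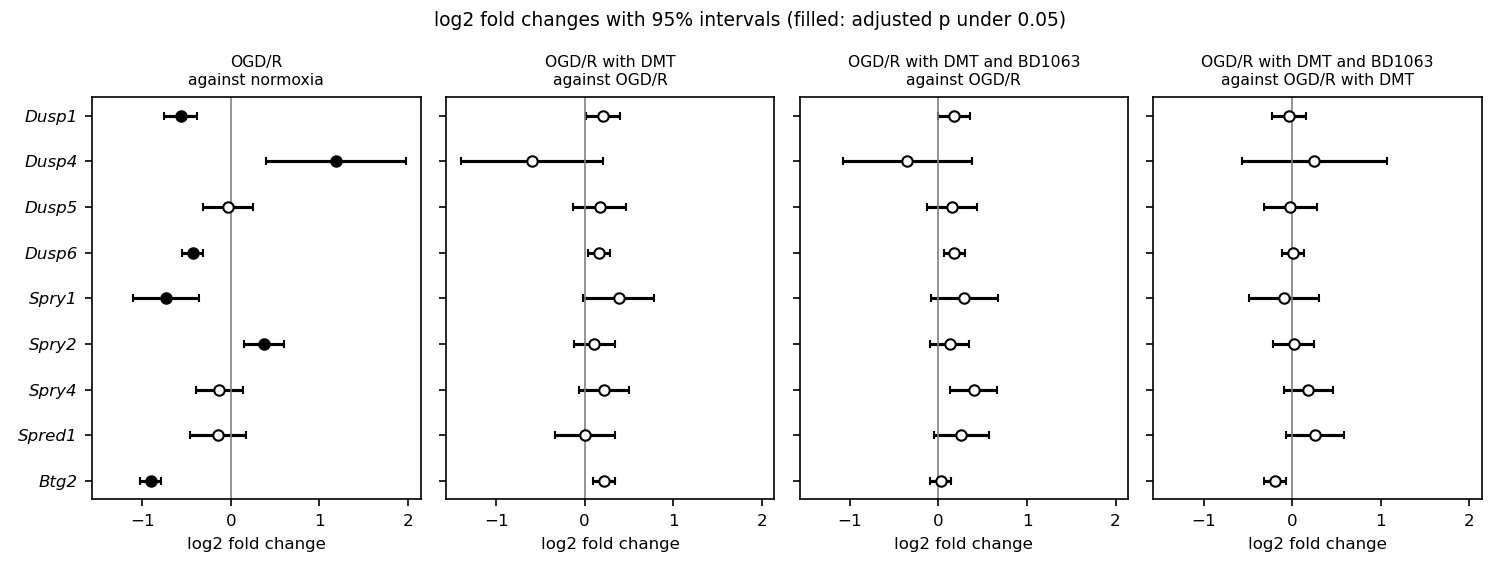
log2 fold changes (x axis) of the 9 genes (rows) with 95% intervals in 4 comparisons (panels). Filled points were called at an adjusted p under 0.05: 6 genes in OGD/R against normoxia, and none in the other 3 panels by edgeR's test.

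In the DMT group, 4 of the 9 genes differed from normoxia, where 23.7% of all genes were called, 12.8% higher and 11% lower. Btg2 (log2 fold change -0.68, adjusted p = 1.48e-08), Dusp1 (-0.36, adjusted p = 0.00676) and Dusp6 (-0.26, adjusted p = 0.00231) were lower, and Spry2 was higher (0.49, adjusted p = 0.00292; edgeR). The call of Dusp1 ended when only these groups were fitted (adjusted p = 0.0527). The same 4 genes were called, in the same directions, in the BD1063 group against normoxia, where 26.3% of all genes were called, 13.1% higher and 13.2% lower. There the log2 fold changes were -0.88 for Btg2, -0.39 for Dusp1, -0.25 for Dusp6 and 0.50 for Spry2. In both comparisons the libraries of these 4 genes did not overlap with normoxia. Over all genes, 6.38% were higher and 6.3% lower without overlap in the DMT group, and 8.85% and 9.47% in the BD1063 group. The normoxia libraries are shared by these comparisons and by that of OGD/R alone. Spry1, with a log2 fold change of -0.44 in the BD1063 group against normoxia, missed the threshold (adjusted p = 0.0659, edgeR). It passed in DESeq2 (0.0491), in limma voom (0.0349), with these groups alone (0.0255), without OGD/R 3, OGD/R 5 and DMT 5 together (0.0401), without normoxia 1 (0.0413) and without BD1063 4 (0.0396), and otherwise had an adjusted p of up to 0.185. The count of called genes among the 9 was 4 to 6 over these settings.

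DMT given with OGD/R was compared with OGD/R alone. By edgeR's test 0 of the 9 genes passed, and 0.492% of all genes did (0.325% higher, 0.166% lower). None of the 9 had libraries without overlap, as 0.795% of all genes had in the higher and 0.578% in the lower direction. At an unadjusted p under 0.05 there were 3 of the 9 genes, Btg2, Dusp6 and Dusp1, and 1679 of all genes. DESeq2 called 1 of the 9 and 258 of all genes, and limma voom 3 and 752, where edgeR called 68 of all genes. Of the 9 log2 fold changes, 8 were above 0, with a median of 0.17. Over all genes the median was 0.00039, and 49.9% were below 0. In the BD1063 group against OGD/R, which shares these OGD/R libraries, 8 of the 9 were above 0 as well.

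Btg2 averaged 386 ± 21.1 CPM in the DMT group (SD, n = 5) and 331 ± 27.1 CPM in OGD/R (SD, n = 6). All 5 DMT libraries were above the OGD/R mean, and only DMT 5 lay within the OGD/R range. The log2 fold change was 0.22 ± 0.06 (SE; 95% interval 0.10 to 0.34; unadjusted p = 0.00108, adjusted p = 0.0997, edgeR). Without DMT 5, the library with the high ribosomal protein share, it was 0.25 with an adjusted p of 0.0216, and with other single libraries left out the adjusted p reached 0.257. DESeq2 gave an adjusted p of 0.0138, and the other fits and scalings ran from 0.00911 in limma voom to 0.504.

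Dusp6 averaged 225 ± 6.53 CPM in the DMT group (SD, n = 5) and 200 ± 20.4 CPM in OGD/R (SD, n = 6), a log2 fold change of 0.17 (95% interval 0.04 to 0.29; adjusted p = 0.229, edgeR). The DMT libraries all exceeded the OGD/R mean but lay within the OGD/R range except for DMT 3. Dusp1 averaged 133 ± 8.28 CPM in the DMT group (SD, n = 5) and 115 ± 9.51 CPM in OGD/R (SD, n = 6), a log2 fold change of 0.21 (95% interval 0.02 to 0.40; adjusted p = 0.361, edgeR). Limma voom called both (adjusted p = 0.0308 for Dusp6 and 0.03 for Dusp1). Their adjusted p-values under the other fits and scalings ran up to 0.668 for Dusp6 and 0.56 for Dusp1. Intervals of the other 6 genes all included 0, the widest being -1.40 to 0.20 for Dusp4.

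Adding BD1063 to DMT was compared with DMT alone, where 0 of 13834 genes (0%) were called by edgeR, 1005 had an unadjusted p under 0.05, and DESeq2 called 1. Of the 9 genes, 0 were called by edgeR, DESeq2 or voom, and 1, Btg2, had an unadjusted p under 0.05. Btg2 averaged 337 ± 13.996 CPM in the BD1063 group (SD, n = 6) and 386 ± 21.1 CPM in the DMT group (SD, n = 5). All 6 BD1063 libraries, the highest at 351 CPM, lay below all 5 DMT libraries, the lowest at 358 CPM. Over all genes 0.506% were lower without overlap, and 0.405% higher. The log2 fold change was -0.20 ± 0.06 (SE; 95% interval -0.32 to -0.07; unadjusted p = 0.00304, adjusted p = 0.664, edgeR). The intervals of the other 8 genes included 0; for Dusp6 it was -0.11 to 0.14, and for Dusp1 -0.23 to 0.16.

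Against OGD/R alone, 0 of the 9 genes were called in the BD1063 group by edgeR, where 5.31% of all genes were (1.86% higher, 3.46% lower). None of the 9 had libraries without overlap, as 2.1% of all genes had in the higher and 2.67% in the lower direction. At an unadjusted p under 0.05 there were 2 of the 9 and 3438 of all genes. DESeq2 called 2 of the 9 and 1297 of all genes, and limma voom 1 and 1685. Of the 9 log2 fold changes, 8 were above 0, with a median of 0.18. Over all genes the median was -0.01, and 52.9% were below 0. Btg2 averaged 337 ± 13.996 CPM in the BD1063 group and 331 ± 27.1 CPM in OGD/R (SD, n = 6 each), with a log2 fold change of 0.02 (95% interval -0.09 to 0.14; adjusted p = 0.812, edgeR). Its group means ran in the order normoxia, DMT, BD1063 and OGD/R, but edgeR's test called only the differences from normoxia.

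Dusp6 averaged 227 ± 10.2 CPM in the BD1063 group and 200 ± 20.4 CPM in OGD/R (SD, n = 6 each). All 6 BD1063 libraries were above the OGD/R mean, and the groups overlapped. The log2 fold change was 0.18 ± 0.06 (SE; adjusted p = 0.0644, edgeR). It was called without OGD/R 5 (0.24, adjusted p = 0.0289), within a range up to 0.15 with single libraries left out. Dusp6 was also called in DESeq2 (adjusted p = 0.0214), in limma voom (0.00947) and with total count scaling (0.0258). The fit without OGD/R 3, OGD/R 5 and DMT 5 together called it too (0.0103). Under the remaining fits and scalings its adjusted p ran up to 0.0776. Spry4 had 43.3, 35.9, 40.8, 59.4, 62.8 and 47.1 CPM in the BD1063 libraries and 28.2, 32.2, 40.8, 47.2, 30.7 and 40.7 CPM in the OGD/R libraries. BD1063 4 and BD1063 5 stood above every other library of the study, and the other BD1063 libraries lay within the OGD/R range. Its log2 fold change was 0.40 ± 0.13 (SE; 95% interval 0.13 to 0.66; adjusted p = 0.0664, edgeR). It was called without OGD/R 4 (0.48, adjusted p = 0.0277) and without BD1063 2 (0.0466), within a range up to 0.186 with single libraries left out. Spry4 was also called in DESeq2 (adjusted p = 0.033), with total count scaling (0.0495) and with the replicate number as a block (0.0475). Under the remaining fits and scalings its adjusted p ran up to 0.0856. This comparison shares its OGD/R libraries with that of the DMT group.

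Other genes of the pathway were followed in 9 lists, each described for OGD/R against normoxia, where 16.7% of all genes were lower and 18.9% higher with a median of 0.01. Over the 9 lists together 67 of 151 genes (44.4%) were called, 44 lower and 23 higher. Of 10 tested other MAP kinase phosphatases, 2 fell and 0 rose, with a median of 0.02: Dusp7, a cytoplasmic ERK phosphatase, at 36.5 ± 3.81 CPM in OGD/R and 50.3 ± 5.02 CPM in normoxia (SD, n = 6 each), and Dusp3, with a log2 fold change of -0.26. Of 15 other brakes on receptor and Ras signalling, 4 fell and 1 rose, with a median of -0.22. Errfi1, an inhibitor of the epidermal growth factor receptor, fell by 0.48 on the log2 scale, and Pebp1, an inhibitor of Raf, rose by 0.32. Of 23 genes of the Ras, Raf, MEK and ERK cascade itself, 6 fell and 0 rose, with a median of -0.02; without OGD/R 2 the number that fell was 3. The falls with the smallest p were those of the Ras exchange factor Sos1 (log2 fold change -0.49) and the adaptor Shc1 (-0.19).

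Of 20 genes of the JNK, p38 and ERK5 cascades, 3 fell and 1 rose, with a median of -0.03. The riser was Mapk11, p38 beta (log2 fold change 0.56), and the fall with the smallest p was that of the kinase Map3k3 (-0.32). Of 17 receptor tyrosine kinases and co-receptors of vessels, 5 rose and 3 fell, with a median of -0.10; without normoxia 5, in DESeq2 and in limma voom 5 fell. Kdr, the main receptor of vascular endothelial growth factor, had 416 ± 52.4 CPM in OGD/R and 294 ± 30.0 CPM in normoxia (SD, n = 6 each). Fgfr2 rose by 0.34 on the log2 scale. Of 11 tested ligands, 6 fell and 2 rose, with a median of -0.32. Vegfa fell by 0.66 and Pdgfb by 0.46 on the log2 scale.

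A list of immediate and delayed early genes that ERK signalling can induce had 25 tested genes, with a median of -0.22. Of these, 12 fell (16.7% of all genes did) and 7 rose (18.9% did). Which kinase controls each of them in these cells was not tested. Egr1, a zinc finger transcription factor, had 8.80 ± 2.71 CPM in OGD/R and 25.6 ± 11.996 CPM in normoxia (SD, n = 6 each; log2 fold change -1.54, adjusted p = 1.52e-05, edgeR). Etv4, an ETS transcription factor, went the other way, with 35.6 ± 4.70 CPM in OGD/R and 15.7 ± 1.68 CPM in normoxia (SD, n = 6 each; log2 fold change 1.18, adjusted p = 9.73e-10, edgeR). The genes that fell included Fos, Fosb, Jun, Junb, Klf2 and Klf4, and those that rose included Ier3, Ccnd1, Phlda1 and Maff, both sets named after their values were seen.

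Of 13 BTG/TOB family members and deadenylase partners, 3 fell and 2 rose, with a median of -0.08. The 3 that fell were the family members Btg1 (log2 fold change -0.46), Tob2 (-0.33) and Tob1 (-0.24), while Btg3 (-0.0002, adjusted p = 0.999, edgeR) did not pass the test; these 4 were named after their values were seen. Those that rose were the poly(A)-binding protein gene Pabpc1 (0.28) and Prmt1, an arginine methyltransferase that binds BTG proteins (0.50). Of 17 genes listed as p53 targets, 5 rose and 5 fell, with a median of -0.05. Whether p53 controls each of them in these cells was not tested. Those with the smallest p were Plk2 (-0.48) and Ccng2 (-0.46), both lower, while the cell cycle inhibitor Cdkn1a, named after its value was seen, rose by 0.24.

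**Figure D3:**
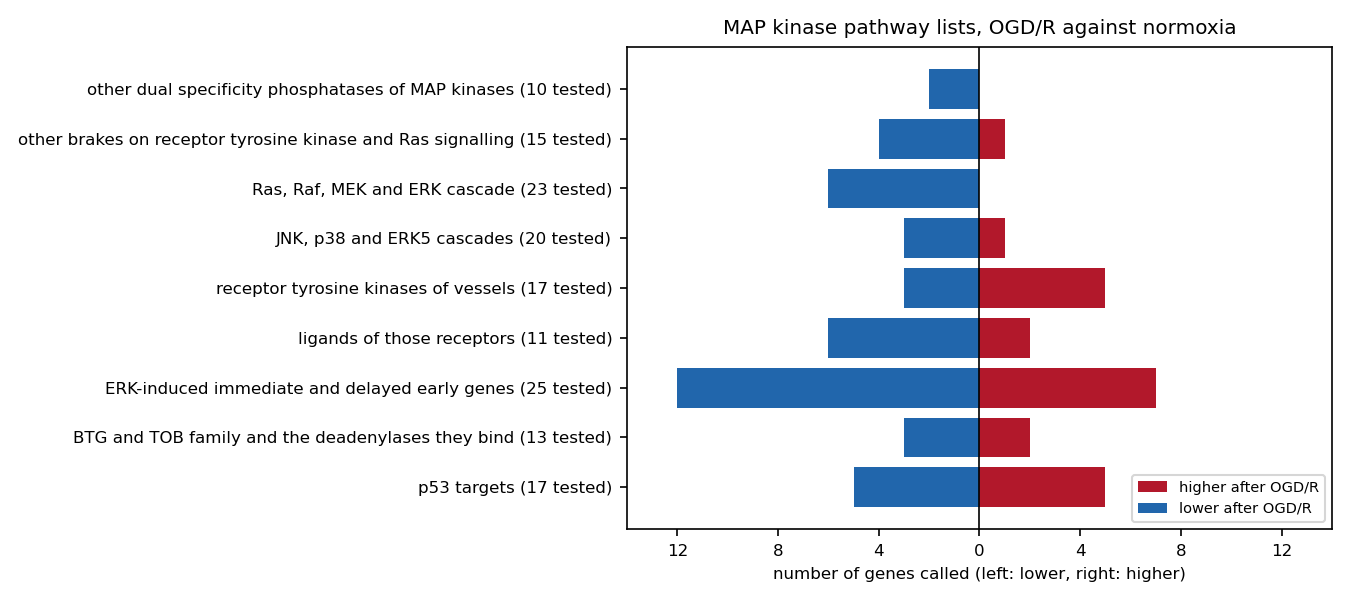
Number of genes called in OGD/R against normoxia (x axis, lower to the left of 0 and higher to the right) in 9 lists (rows, with the number of genes tested). The early gene list has 12 genes lower and 7 higher, and the receptor list 3 lower and 5 higher.

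Against OGD/R alone, the DMT group had 3 called genes among the 151 of these lists (1.99%), where 0.492% of all genes were called. Angpt2, a destabilizing ligand of the Tie2 receptor, averaged 673 ± 42.4 CPM in the DMT group (SD, n = 5) and 543 ± 40.2 CPM in OGD/R (SD, n = 6; log2 fold change 0.31, adjusted p = 0.0165, edgeR). Its call ended without DMT 3 (0.067), without DMT 4 (0.0533) and with these groups alone (0.314). Ccng2 averaged 67.3 ± 2.27 CPM in the DMT group (SD, n = 5) and 52.2 ± 4.56 CPM in OGD/R (SD, n = 6; log2 fold change 0.37, adjusted p = 0.00782, edgeR), a call that ended with these groups alone (0.194). Emp1, an epithelial membrane protein gene, had a log2 fold change of -0.20 (adjusted p = 0.0407, edgeR), and its call ended with 8 of the 11 libraries left out singly (adjusted p up to 0.10) and in 5 other settings (up to 0.46). In the other lists the gene with the smallest p was not called by edgeR. These were Dusp9 (-1.32, adjusted p = 0.361), Cblb (0.28, 0.347), Frs2 (0.29, 0.256), Mapkapk3 (-0.39, 0.181), Fgfr2 (-0.17, 0.287) and Prmt1 (-0.26, 0.181). In the BD1063 group against OGD/R, 8 of the 151 list genes (5.3%) were called, about the share of all genes (5.31%). Cblb (0.40), Vegfb (0.44), Angpt2 (0.37) and Myc (0.23) were higher, and Grb2 (-0.16), Emp1 (-0.16), Prmt1 (-0.30) and Gadd45a (-0.38) were lower, Vegfb being named after its value was seen. Dusp9 (-1.21, adjusted p = 0.16), Mapk7 (0.16, 0.103) and Flt4 (0.18, 0.139) had the smallest p of their lists and were not called by edgeR. Leaving out single libraries ended the calls of Cblb (10 of 12 libraries, adjusted p up to 0.12), Grb2 (10, up to 0.139), Myc (10, up to 0.085), Prmt1 (8, up to 0.107) and Gadd45a (3, without OGD/R 2, BD1063 3 or BD1063 5, up to 0.0574). The call of Angpt2 held in each of these fits, and those of Vegfb and Emp1 were not refitted here.

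Genes whose log2 CPM followed each of the 9 most closely over the 23 libraries were sought among 9812 genes. For Btg2 they were Scarb1, the high-density lipoprotein receptor (r = 0.98), and Xdh, xanthine dehydrogenase (r = 0.98). Dusp6 was followed by Hlx (r = 0.94) and Ndrg1 (r = 0.93), and Dusp1 by Zfp36, which encodes an mRNA-destabilizing protein (r = 0.90), and Fos (r = 0.89). The closest were Phlda1 for Spry2 (r = 0.84), Ppp1r15b for Spry4 (r = 0.86), Magi1 for Spred1 (r = 0.88), Mex3c for Spry1 (r = 0.81), Mpp6 for Dusp4 (r = 0.76) and Fbxl21 for Dusp5 (r = 0.71). Next came Adamts1 for Spry2 (0.83), Pfkfb3 for Spry4 (0.82), Adam19 for Spred1 (0.85), Itpkc for Spry1 (0.79), Adamts4 for Dusp4 (0.74) and Dusp8 for Dusp5 (0.67). These values describe libraries that share their treatment groups, so part of each lies in the difference between groups. With group means removed, r was 0.71 for Btg2 and Scarb1, 0.87 for Btg2 and Xdh, 0.81 for Dusp6 and Hlx, 0.67 for Dusp6 and Ndrg1, 0.78 for Dusp1 and Fos, and 0.73 for Dusp1 and Zfp36. For the closest gene of each of the other 6 it was 0.55 for Spry2 and Phlda1, 0.80 for Spry4, 0.86 for Spred1, 0.76 for Spry1, 0.67 for Dusp4 and 0.76 for Dusp5.

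Among the 9 genes themselves, deviations of log2(CPM + 0.5) from the group mean were compared in 36 pairs over the 23 libraries, with 2-sided p-values from 100000 permutations within groups, adjusted over the 36 pairs. Spry4 and Btg2 ran opposite, with Pearson's r of -0.669 (permutation p = 0.00056, adjusted p = 0.0202) and Spearman's rho of -0.60 (permutation p = 0.00554, adjusted p = 0.171). Without the 2 libraries farthest from the median of Spry4, r was -0.637. Within single groups r ran from -0.966 to 0.112 and was negative in 3 of 4. Dusp6 and Btg2 ran together in 4 of 4 groups, with r = 0.628 (permutation p = 0.00862, adjusted p = 0.103) and rho = 0.555 (permutation p = 0.0143, adjusted p = 0.171), and r was 0.663 without the 2 libraries farthest from the median of Dusp6. Dusp6 and Spry4 ran opposite in 3 of 4 groups, with r = -0.607 (permutation p = 0.00711, adjusted p = 0.103). Their rho was -0.586 (permutation p = 0.00975, adjusted p = 0.171). Of the 36 pairs only Spry4 and Btg2 passed, by r and not by rho.

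**Figure D4:**
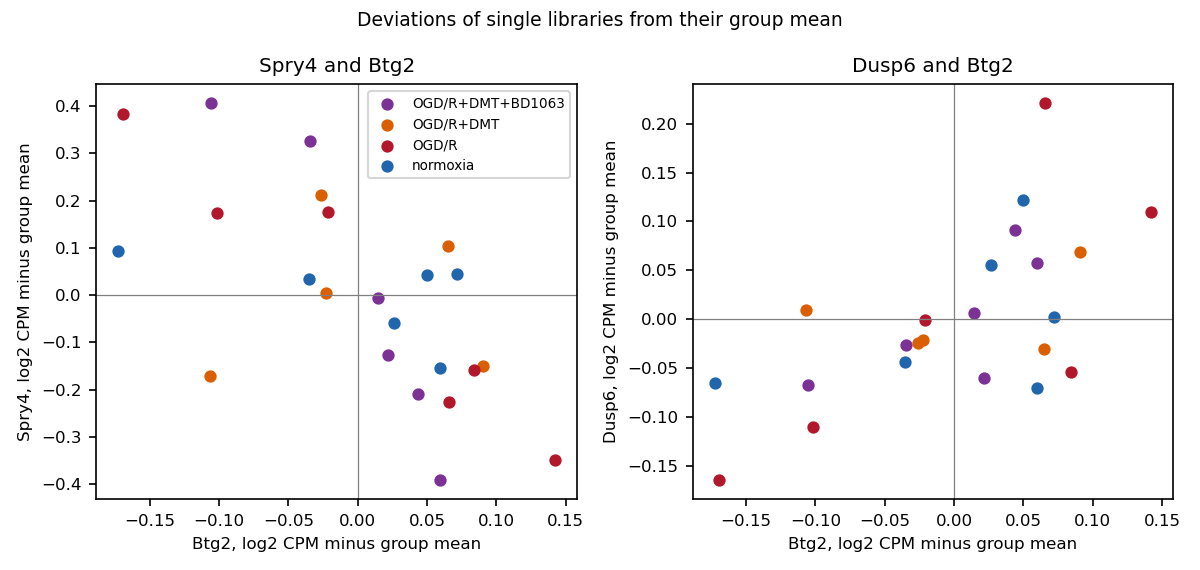
Deviation of each library from its group mean (log2 CPM) of Spry4 (left, y axis) and Dusp6 (right, y axis) against that of Btg2 (x axis), with 1 point per library coloured by group. Spry4 runs against Btg2 (r = -0.669) and Dusp6 with it (r = 0.628).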

How the data were processed

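The authors deposited whole-number counts per gene for 23 libraries, 1 per culture insert, and columns were matched to samples through the labelled library names, with 0 left over. Per the labels' protocols, poly-A RNA was made into strand-specific libraries and read as single reads. Per the submitters' processing notes, which give no role or order, the tools were STAR 2.7.10a, RSEM 1.3.3, cutadapt 3.4, DESeq2 1.38 and FastQC 0.11.9, with the build Rnor_6.0. The sources used here do not say whether counting used strand, so genes that overlap are uncertain. A further deposited table, of the same counts divided by 1 number per library, was not used.

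The counts were tested here with edgeR 4.0.16 in R 4.3.3 (quasi-likelihood, robust, 2-sided, TMM scaling, filterByExpr minimum of 10 counts, 4 group means, no covariates). Alternatives were DESeq2 1.42.0, limma 3.58.1 (voom with sample weights), other scalings and filters, the replicate number as a block, the compared groups alone, and libraries left out. The fit was tested on data simulated for OGD/R against normoxia, with a spread that was set and not taken from these libraries. It recovered 13.4% of 67 genes changed 1.25-fold, 73.1% of 67 changed 1.5-fold and 93.9% of 66 changed 2-fold, with 4 false calls. In the simulation small differences thus often went uncalled. Only these genes of 13733 were changed there, while 35.5% of all genes were called in the real comparison. The recovery rates therefore cannot be carried over to the real comparison. Names follow a rule: the 9 genes; of each list the 2 genes with the smallest p in OGD/R against normoxia and the 1 with the smallest in each comparison of a drug group with OGD/R; and the 2 genes closest to each of the 9 by r at a mean of at least 4 CPM. Further genes are marked as named after their values were seen. The 9 genes and the lists were chosen with earlier results of these data known. Same-numbered libraries were not taken as pairs, since their deviations did not correlate throughout.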

Additional observations from a re-analysis of the deposited data

How the results depend on the processing

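Over the alternatives other than leaving out 1 library, 453 of the values of the 9 genes kept their direction and side of the threshold, 20 passed it newly, 2 no longer passed and 2 changed sign. With single libraries left out these numbers were 596, 6, 1 and 18. For DMT against OGD/R, edgeR called 0 of the 9 genes, DESeq2 1, limma voom 3, and the fit without OGD/R 3, OGD/R 5 and DMT 5 together 2; leaving out single libraries gave 0 to 1. For the BD1063 group against OGD/R, the count was 0, against 2 with total count scaling, 2 in DESeq2, and 1 each in limma voom, with these groups alone and without those 3 libraries; leaving out single libraries gave 0 to 1. Replicate numbers shared by groups did not pair the libraries throughout (correlations of deviations between -0.42 and 0.64, with at most 2 libraries of a comparison closest to their own number). The highest were those of number 5: 0.64 between DMT and OGD/R, 0.51 between DMT and normoxia and 0.47 between OGD/R and normoxia. Those of BD1063 5 with the other libraries of that number ran from -0.42 to -0.25. With the replicate block, the BD1063 group against OGD/R gave 1 called gene of the 9, Spry1 was called in the BD1063 group against normoxia (adjusted p = 0.0343), 5 receptor genes were lower in OGD/R, and Spry2 in the BD1063 group against DMT turned to -0.025. With total count scaling, Dusp5 turned to 0.0089 in that comparison. With single libraries left out, differences close to 0 changed sign: in OGD/R against normoxia Dusp5 ran from -0.10 to 0.033, in DMT against OGD/R Spred1 from -0.057 to 0.12, in the BD1063 group against DMT Dusp5 from -0.10 to 0.077, Dusp6 from -0.0069 to 0.029 and Spry2 from -0.045 to 0.063, and in the BD1063 group against OGD/R Btg2 from -0.0074 to 0.054 and Dusp4 from -0.54 to 0.12. Over all genes, DMT against OGD/R gave 68 calls, against 37 with no filter, 37 with the replicate block, 258 in DESeq2, 752 in limma voom, 4 with these groups alone, 453 without the 3 libraries, and 26 to 1083 with single libraries left out. The BD1063 group against OGD/R gave 735, against 257 with no filter, 1297 in DESeq2, 1685 in limma voom, 1500 alone, 1471 without the 3 libraries, and 76 to 975 with single libraries left out; 35% of its calls were higher, against 65.7% with total count scaling. In DMT against OGD/R 66.2% were higher, against 81% with that scaling; the majority turned to lower in limma voom (37.9% higher), without the 3 libraries (38.9%) and without DMT 5 (34.1%), and over all settings the share ran from 34.1% to 100%. The BD1063 group against normoxia gave 3636 calls and 5903 in limma voom. Counts for the lists were recomputed under alternatives chosen after seeing the data: in OGD/R against normoxia they moved by at most 1 with single libraries left out, except for the early genes (10 to 12 lower), the Ras to ERK cascade (3 to 6 lower) and the receptors (3 to 5 lower). Depth limits Dusp4 most, at 4 to 45 reads per library. The cause of these changes was not tested.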
